A study of Mus musculus with 5 samples.

Results

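The core circadian clock genes and their output gene Dbp were followed through 5 pools of mouse liver RNA. The 10 genes (Arntl, Clock, Npas2, Per1, Per2, Per3, Cry1, Nr1d1, Nr1d2 and Dbp) were taken by name, as every non-control probe whose gene name on the array equals one of them, which gave 17 probes out of 41169. They stand among 28630 gene names on the array and were picked with their signals on these arrays known, so their levels and differences are a description. The livers came from male C57BL/6J mice, a common inbred strain, aged 25 weeks. The Control group was untreated. The HFHFr-F mice ate a high-fat, high-fructose diet (HFHFr) for 20 weeks. The HFHFr-N mice ate it for 16 weeks and then a normal diet for 4 weeks, and the HFHFr-NA mice received all-trans retinoic acid in the normal diet of those 4 weeks. The HFHFr-FA mice stayed on the HFHFr diet and received all-trans retinoic acid in it for the last 4 weeks. All-trans retinoic acid is the form of vitamin A that binds the retinoic acid receptors. In the labels, HFHFr-F had severe insulin resistance, HFHFr-N was insulin resistant, HFHFr-NA had recovered, and HFHFr-FA was not insulin resistant but had slight steatosis.

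RNA from the biopsies of 5 mice was pooled in each group and hybridised to 1 array, so differences lack a check by replicates, groups could not be tested against each other, and "higher" and "lower" describe these pools. The sources used here do not give the hour of sampling. Clock transcripts change through the day, so the hour and the group cannot be told apart for any result below. HFHFr-FA was alone on a slide of its own while the other 4 arrays shared a slide, and for HFHFr-FA the slide cannot be told apart from the group.

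The mammalian clock is a feedback loop of transcription. ARNTL (BMAL1) pairs with CLOCK, or with its relative NPAS2, and the pair binds E-box sequences to switch on the Per, Cry, Nr1d and Dbp genes. PER and CRY proteins then inhibit that pair, NR1D1 and NR1D2 (REV-ERB alpha and beta) bind ROR elements and repress Arntl, and DBP carries the rhythm to liver genes through D-box elements. In liver, Arntl transcripts and those of Dbp and the Nr1d genes peak at opposite times of the day.

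The sequences below are the stretches just upstream of 5 clock genes, 250 bases before a transcript start in RefSeq (GRCm38.p6), with matches to the elements of this loop in capitals. They are shown because the arms of the loop act on one another through elements of these kinds, though the capitals mark matching letters only. Each is written 5′ to 3′ on the strand of the gene. Per1 lies at chr11:69098699-69098948 on the plus strand, Cry1 at chr10:85185055-85185304, Nr1d1 at chr11:98775378-98775627, Nr1d2 at chr14:18239107-18239356 and Ciart, a further repressor of the loop that is not among the 10 genes, at chr3:95882229-95882478, the last 4 on the minus strand.
Per1: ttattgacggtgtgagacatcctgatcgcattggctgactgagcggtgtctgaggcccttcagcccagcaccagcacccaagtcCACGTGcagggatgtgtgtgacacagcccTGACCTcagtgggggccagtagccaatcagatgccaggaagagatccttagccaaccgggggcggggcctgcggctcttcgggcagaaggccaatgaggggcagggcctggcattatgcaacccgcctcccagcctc
Cry1: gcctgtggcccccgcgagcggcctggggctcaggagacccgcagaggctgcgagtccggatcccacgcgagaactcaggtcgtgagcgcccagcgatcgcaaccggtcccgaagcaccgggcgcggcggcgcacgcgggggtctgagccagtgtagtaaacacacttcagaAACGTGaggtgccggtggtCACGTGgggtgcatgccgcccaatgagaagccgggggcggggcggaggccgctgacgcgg
Nr1d1: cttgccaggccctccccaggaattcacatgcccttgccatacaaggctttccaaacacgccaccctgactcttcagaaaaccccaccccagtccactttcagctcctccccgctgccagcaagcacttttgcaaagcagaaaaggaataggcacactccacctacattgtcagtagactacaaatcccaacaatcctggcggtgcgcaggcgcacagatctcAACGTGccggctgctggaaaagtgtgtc
Nr1d2: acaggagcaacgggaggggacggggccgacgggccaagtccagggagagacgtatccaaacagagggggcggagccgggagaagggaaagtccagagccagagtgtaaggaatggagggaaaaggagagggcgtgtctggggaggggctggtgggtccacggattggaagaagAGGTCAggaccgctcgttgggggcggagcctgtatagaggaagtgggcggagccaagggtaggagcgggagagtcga
Ciart: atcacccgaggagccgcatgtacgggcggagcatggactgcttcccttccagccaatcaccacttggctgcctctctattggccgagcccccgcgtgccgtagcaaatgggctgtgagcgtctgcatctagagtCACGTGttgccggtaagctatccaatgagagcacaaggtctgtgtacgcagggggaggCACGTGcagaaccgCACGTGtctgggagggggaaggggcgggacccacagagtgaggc
Arntl: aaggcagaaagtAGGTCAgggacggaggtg
The Arntl line is a stretch of 30 bases at chr7:113207530-113207559 on the plus strand, downstream of a transcript start, whose ROR half-site begins at base 32 counted from that start. The 4 elements were searched on both strands as fixed letters.

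The E-box (CACGTG) stood 166 bases before 1 of the starts of Per1, 60 before the start of Cry1, and 116, 58 and 44 before that of Ciart. The related E′-box (CACGTT or AACGTG) stood 79 bases before the Cry1 start and 28 before the Nr1d1 start. The ROR half-site (AGGTCA or TGACCT) is the core of the element bound by the NR1D and ROR receptors. It stood 137 bases before the same Per1 start, 77 before the Nr1d2 start and, for Clock, 119 before 1 of its starts. The D-box (TTATGTAA, TTACATAA or TTACGTAA) stood 205 and 158 bases before the Per3 start. No match of an element overlapped a match of another. RefSeq windows were at hand for 9 of the 10 genes, 13 windows of 300 bases in all. Of these, 6 held none of the 4 elements, among them the Dbp window and the window of another Per1 start. Over 32851 such windows of all genes, 7.15% held an E-box, 4.68% an E′-box, 1.06% a D-box and 16.3% a ROR half-site. A match is a description of the letters and not a measured binding site.

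**Figure D1:**
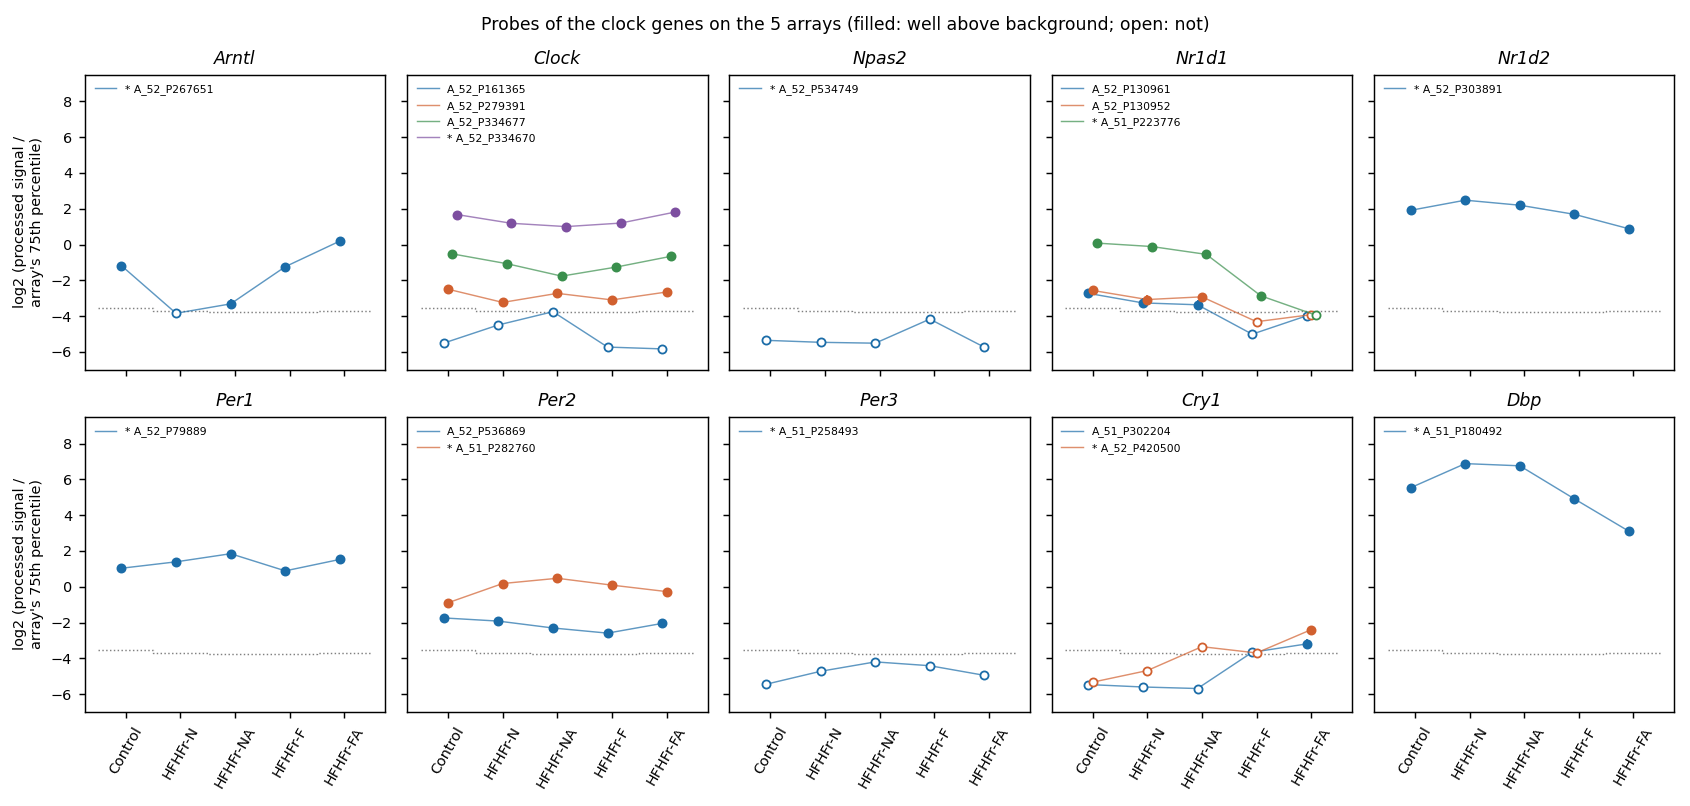
Level of each probe of the 10 clock genes on the 5 arrays, as log2 of the processed signal over the array's 75th percentile (vertical axis) by group (horizontal axis); filled points were well above background, open points were not, the asterisk marks the probe that stands for the gene and the dotted line is the lowest signal well above background on each array. The lines only join the points of a probe. Arntl is highest in HFHFr-FA and lowest in HFHFr-N, while Dbp is highest in HFHFr-N and lowest in HFHFr-FA.

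Signals are given as the scanner software's processed signal, a background-subtracted brightness in arbitrary units. Ratios between arrays are log2 values after each array was divided by its 75th percentile, 174, 223, 212, 172 and 180 in Control, HFHFr-F, HFHFr-FA, HFHFr-N and HFHFr-NA. The value after ± is the error that the scanner software gives for the spots of both arrays combined. For each array alone it was 0.14 on the bright probes of Dbp and Nr1d2, nearly a constant and not a spread measured between spots. A gap beyond 2 software errors is therefore close to a fixed cutoff for bright probes. The software error leaves out the spread between mice, pools and slides. Where a probe was not well above background on an array, the ratio is a bound, set against the higher of its own signal there and the lowest well-above signal of that array. Of the 17 probes, 8 were well above background on all 5 arrays, 6 on some and 3 on none. The 3 were the probes of Npas2 and Per3 and 1 of the 4 Clock probes.

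Arntl, the activator that the loop cannot run without, had a signal of 76.6 in Control, 94.2 in HFHFr-F, 243 in HFHFr-FA and 18.0 in HFHFr-NA. In HFHFr-N it was not well above background, at 12.0. The mice returned to normal diet, with or without retinoic acid, therefore had the lowest Arntl and the mice on HFHFr diet with retinoic acid the highest. HFHFr-F differed from Control by -0.06 ± 0.22, which is within the software error. Arntl in HFHFr-N was at least 5.68-fold below Control (log2 ratio -2.51 or lower) and at least 5.46-fold below HFHFr-F (-2.45 or lower). Under normexp background correction with an offset of 50, which compresses dim signals, those log2 ratios of Arntl were -0.90 and -0.89. HFHFr-FA exceeded HFHFr-F by 1.43 ± 0.21, or 2.70-fold, and Control by 1.38 ± 0.21. HFHFr-NA was below Control at -2.14 ± 0.31, or 4.40-fold, and below HFHFr-FA at -3.51 ± 0.30, or 11.4-fold. The 60-base Arntl probe lies at chr7:120456978-120457037 (mm9, plus strand).

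Clock, the partner of ARNTL, varied far less. Its brightest probe (A_52_P334670, chr5:76641377-76641436, minus strand) read 555 in Control, 510 in HFHFr-F, 747 in HFHFr-FA, 391 in HFHFr-N and 360 in HFHFr-NA. After scaling, its order from HFHFr-FA down to HFHFr-NA had a single gap beyond 2 software errors, the 0.48 between Control and HFHFr-F. A neighbouring probe (A_52_P334677) read 121, 93.0, 134, 81.8 and 52.8 in the same array order, and a dimmer probe (A_52_P279391) read 30.8, 26.0, 33.7, 18.3 and 27.1. All 3 put Control and HFHFr-FA above the other arrays, though on the dimmest HFHFr-FA led HFHFr-NA by only 0.07. HFHFr-F was below Control on each, at -0.48 ± 0.20, -0.73 ± 0.22 and -0.60 ± 0.32. On A_52_P334677, HFHFr-NA was below Control at -1.24 ± 0.23, or 2.37-fold, and below HFHFr-FA at -1.11 ± 0.23, or 2.15-fold. The brightest probe gave -0.67 and -0.81 for these ratios, short of 2-fold. The Clock probe that was dim throughout lies nearest to the transcript's beginning, at base 755 of the RefSeq transcript, against 6847 and 7243 for the brighter pair.

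Npas2, which can stand in for CLOCK, was not well above background on any array, with signals from 3.89 to 12.4. Nothing can be said of its differences.

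Nr1d1, the repressor that ties the loop's arms together, had a signal of 184 in Control, 159 in HFHFr-N and 123 in HFHFr-NA, but 30.5 in HFHFr-F. In HFHFr-FA it read 13.8 and was not well above background. Both arrays of mice on the HFHFr diet at the end were thus low and the 3 others high. The share of all gene names that split the arrays this way was not counted. HFHFr-F was below Control at -2.95 ± 0.27, or 7.71-fold, and HFHFr-N was above HFHFr-F by 2.76 ± 0.27, or 6.76-fold. Under normexp these log2 ratios of Nr1d1 were -1.78 and 1.53, still past 2-fold. HFHFr-FA was at least 14.0-fold below Control (-3.81 or lower) and at least 9.04-fold below HFHFr-NA. Against HFHFr-F its ratio was -0.86 or lower, a bound short of 2-fold. HFHFr-NA and HFHFr-N differed by -0.44 ± 0.21. The probe (A_51_P223776) matches 60 bases spread over chr11:98630526-98631028, minus strand, an interval longer than the probe.

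The other probes of Nr1d1 were dimmer and gave the same split. A_52_P130952 read 29.3, 20.4 and 23.7 in Control, HFHFr-N and HFHFr-NA, and A_52_P130961 read 26.2, 17.9 and 17.4 there. In HFHFr-F and HFHFr-FA neither was well above background, at 11.2 and 14.0 for A_52_P130952 and 6.90 and 13.4 for A_52_P130961. As bounds, HFHFr-F was below Control at -1.20 or lower and -1.04 or lower on these probes. HFHFr-N was above HFHFr-F by at least 0.69 and 0.50 on them, and HFHFr-NA above HFHFr-FA by at least 0.80 and 0.36. Those bounds fall short of 2-fold, so the dimmer probes do not show the size of these differences.

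Nr1d2, the second REV-ERB gene, kept a strong signal on every array and had a narrower range. It read 654 in Control, 716 in HFHFr-F, 390 in HFHFr-FA, 959 in HFHFr-N and 823 in HFHFr-NA. HFHFr-FA was the low array, below HFHFr-F at -0.81 ± 0.20 and below Control at -1.03 ± 0.20, or 2.05-fold. The gap between HFHFr-F and HFHFr-FA was the only neighbouring gap beyond 2 software errors. Nr1d2 in HFHFr-F differed from Control by -0.22 ± 0.20, beside the -2.95 of Nr1d1.

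Per1, a repressor of the ARNTL and CLOCK pair that also responds to hormones, read 356 in Control, 412 in HFHFr-F, 612 in HFHFr-FA, 452 in HFHFr-N and 647 in HFHFr-NA. The arrays with retinoic acid were the highest for it. HFHFr-FA exceeded HFHFr-F by 0.64 ± 0.20 and HFHFr-NA exceeded HFHFr-N by 0.45 ± 0.20. Neither reached 2-fold, and no gap between neighbours in the order of levels was beyond 2 software errors.

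Per2, the second Period gene, had 2 probes well above background on all arrays that did not show the same pattern. The brighter one (A_51_P282760, chr1:93313046-93313105, at base 5290 of the RefSeq transcript) read 93.6 in Control, 237 in HFHFr-F, 176 in HFHFr-FA, 195 in HFHFr-N and 249 in HFHFr-NA. The dimmer one (A_52_P536869, chr1:93336538-93336597, at base 1001) read 52.0, 36.9, 51.3, 45.5 and 36.4 in that order. Control was the lowest array on the brighter probe and the highest on the dimmer. HFHFr-N against Control was 1.07 ± 0.21 on the brighter probe and -0.18 ± 0.24 on the dimmer. HFHFr-F against Control was 0.98 ± 0.21 on the brighter and -0.85 ± 0.26 on the dimmer, and HFHFr-NA against Control 1.37 ± 0.21 and -0.56 ± 0.25. A direction for Per2 therefore depends on the probe, and its counts below, which use the brighter probe, carry that limit.

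Per3, the third Period gene, was not well above background anywhere, with signals of 3.98 to 10.45. Cry1, the cryptochrome repressor, was well above background in HFHFr-FA alone. Its probe A_52_P420500 read 40.2 there against 4.32 in Control, 17.2 in HFHFr-F, 6.70 in HFHFr-N and 17.6 in HFHFr-NA. Its other probe (A_51_P302204) read 23.2 in HFHFr-FA against 3.94, 17.6, 3.55 and 3.49. HFHFr-FA was above HFHFr-F by at least 1.30, or 2.46-fold, on A_52_P420500 and by at least 0.47 on the other, and both rest on dim spots.

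Dbp, the output factor that acts on D-box genes of drug and lipid metabolism, had the widest range of the 5 genes measured on every array. It read 8064 in Control, 6694 in HFHFr-F, 1816 in HFHFr-FA, 20329 in HFHFr-N and 19481 in HFHFr-NA. HFHFr-N and HFHFr-NA were the high arrays and differed by -0.12 ± 0.20. Every other neighbouring gap in the order, from HFHFr-NA to Control, Control to HFHFr-F and HFHFr-F to HFHFr-FA, was beyond 2 software errors. HFHFr-N was above Control by 1.35 ± 0.20, or 2.55-fold, and above HFHFr-F by 1.97 ± 0.20, or 3.93-fold. HFHFr-F was below Control at -0.63 ± 0.20, short of 2-fold. HFHFr-FA was below HFHFr-F at -1.81 ± 0.20, or 3.51-fold, below Control at -2.44 ± 0.20, or 5.42-fold, and below HFHFr-NA by 12.7-fold. Its probe lies at chr7:52965265-52965324 (mm9, plus strand).

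Side by side, the 3 genes with the widest swings divided the arrays in different ways. Dbp and Arntl were mirror images at the ends, since HFHFr-N and HFHFr-NA had the highest Dbp and the lowest Arntl and HFHFr-FA the lowest Dbp and the highest Arntl. Control and HFHFr-F lay between these ends for both genes. Nr1d1 set HFHFr-F apart from Control more than either, with -2.95 against -0.63 for Dbp and -0.06 for Arntl.

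**Figure D2:**
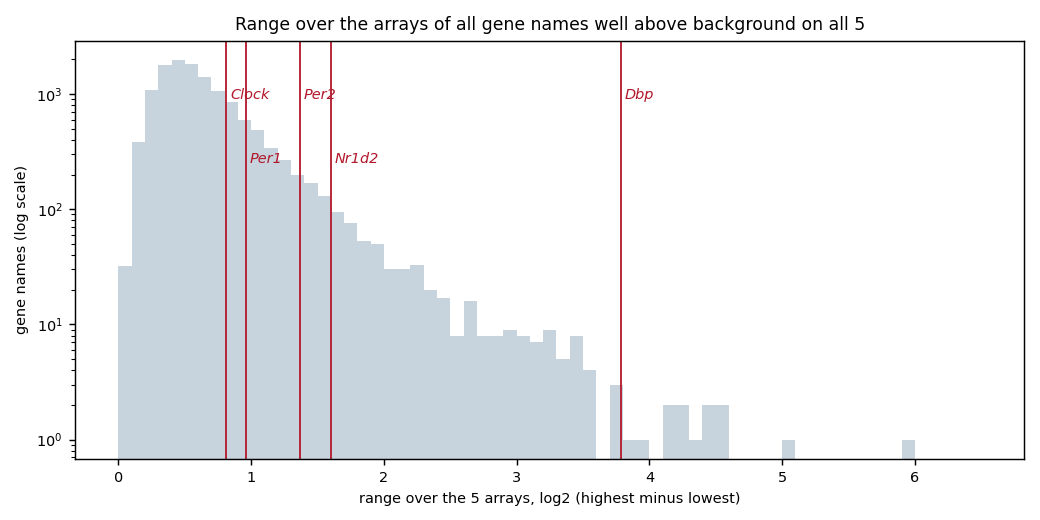
Number of gene names (vertical axis, log scale) by the range of their log2 level over the 5 arrays (horizontal axis), for the 13133 names well above background on all 5; red lines mark the 5 clock genes among them. Dbp, at 3.79, lies far to the right, where few genes are, while Clock and Per1, at 0.81 and 0.96, lie among many.

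The chosen probes of 5 of the 10 genes were well above background on all 5 arrays, which allows a range from the highest to the lowest array. It was 3.79 for Dbp (13.8-fold), 1.60 for Nr1d2, 1.37 for Per2, 0.96 for Per1 and 0.81 for Clock. Dbp ranked 15 of 13133 gene names. A range of at least 2-fold was found in 3 of these 5 genes, beside 16% of all such gene names, and the median range was 1.37 beside 0.57. The other 5 genes were dim on at least 1 array, Arntl and Nr1d1 among them, and are not in that count.

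**Figure D3:**
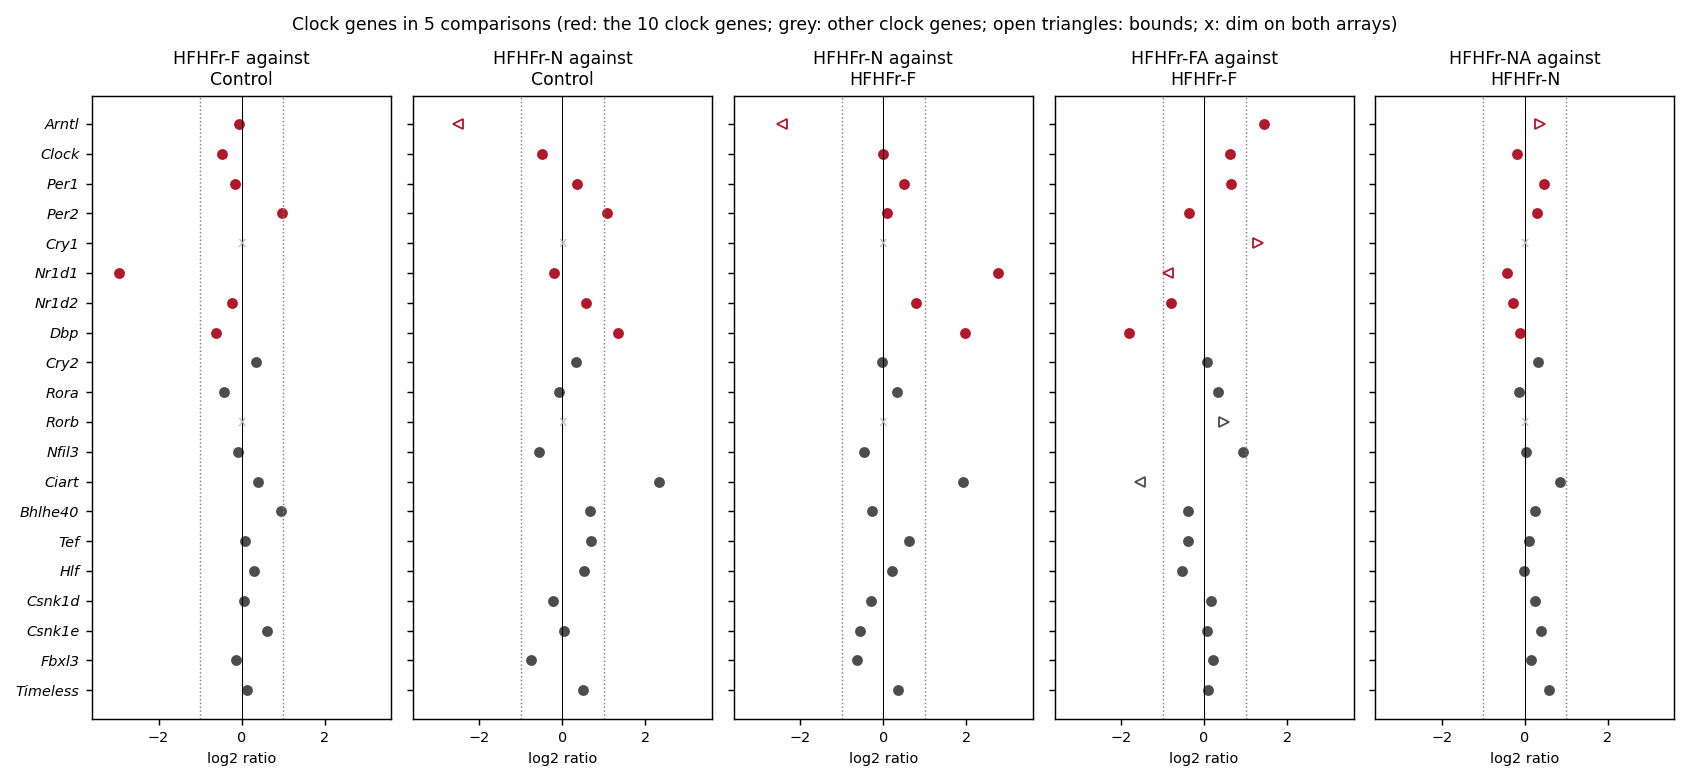
Log2 ratio (horizontal axis) of each clock gene in 5 comparisons (panels), with the 10 clock genes in red and 14 further clock genes in grey, of which Npas2, Per3, Bhlhe41 and Arntl2, dim on every array, are not drawn; open triangles are bounds and point toward the values the bound allows and crosses mark genes dim on both arrays. Dotted lines mark 2-fold. In HFHFr-F against Control the far point on the left is Nr1d1 at -2.95. In HFHFr-NA against HFHFr-N no point passes 2-fold, though that of Arntl is a bound of 0.37 or more.

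The comparison of HFHFr-F with Control describes the clock after 20 weeks of the diet. Of the 10 genes 7 were measured on at least 1 of both arrays, 0 were at least 2-fold higher, beside 5.4% of 14631 gene names, and 1, Nr1d1, was lower, beside 3.21%. Per2 fell just short of 2-fold higher, at 0.98 on its brighter probe, and was at -0.85 on its dimmer one. Between HFHFr-N and HFHFr-F its brighter probe differed by 0.09. The median of the 7 genes was -0.22 beside -0.08 for all gene names. Under cyclic loess scaling, which raises the median of all gene names here by 0.11, 6.77% of gene names were higher and 2.34% lower. The share of higher among all 2-fold calls was 62.7% in the scaling used throughout and 74.3% under loess.

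The comparison of HFHFr-N with Control describes what differs after 4 weeks of normal diet. Of 7 measured genes, Dbp and Per2 were at least 2-fold higher (2, beside 1.15% of 14506 gene names) and Arntl was lower (1, beside 0.834%). The median was 0.36 beside 0.03. Under normexp 1 gene was higher and 0 lower, with Arntl at -0.90, and with the mean over the probes of a gene 1 was higher.

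HFHFr-N against HFHFr-F describes the return to normal diet. Dbp and Nr1d1 were higher (2 of 7, beside 2.15% of 14801) and Arntl was lower (1 of 7, beside 3.63%), with a median of 0.50 beside 0.10. Under normexp 0 were lower, with Arntl at -0.89. Loess moved the median of all gene names by -0.11 here, with 1.47% higher and 4.57% lower. The share of higher among all calls was 37.1%, and 24.4% under loess.

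HFHFr-FA against HFHFr-F describes retinoic acid on the continued diet, on separate slides. Arntl and Cry1 were higher (2 of 8, beside 2.71% of 14929) and Dbp was lower (1 of 8, beside 2.83%). Nr1d1 was counted at its bound of -0.86 or lower, so whether it passed 2-fold lower is not known. The median was 0.13 beside 0.03. Cry1 entered this comparison through HFHFr-FA, the array where it was well above background. Under normexp 0 were higher, with Arntl at 0.92 and Cry1 at 0.38, and with the mean over the probes of a gene 1 was higher. HFHFr-NA against HFHFr-N describes retinoic acid added to the normal diet, within a slide. Of 7 measured genes 0 were higher, beside 1.51% of 14874, and 0 lower, beside 1.32%, with a median of -0.12 beside 0.02. Arntl was counted at its bound of 0.37 or more, as it was dim in HFHFr-N, so whether it passed 2-fold higher is not known. The largest measured ratio of a chosen probe there was the 0.45 of Per1. These comparisons share arrays with each other, and because the genes were picked with these values known, the counts describe the set and carry no further weight.

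Of 14 further clock genes, 11 were measured in each of 4 comparisons and 12 in HFHFr-FA against HFHFr-F. The largest differences were those of Ciart (Gm129 in the file), the repressor with 3 E-boxes shown above, which read 28.8 in Control, 48.9 in HFHFr-F, 142 in HFHFr-N and 269 in HFHFr-NA. In HFHFr-FA it was not well above background, at 9.01. As for Dbp, HFHFr-N and HFHFr-NA were its high arrays and HFHFr-FA its low array. It was 2.32 above Control in HFHFr-N, 1.91 above HFHFr-F in HFHFr-N, and its ratio in HFHFr-FA against HFHFr-F was -1.54 or lower.

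Nfil3, which represses D-box genes and so opposes DBP, read 914 in Control, 1098 in HFHFr-F, 2011 in HFHFr-FA, 616 in HFHFr-N and 659 in HFHFr-NA. It was highest in HFHFr-FA, where Dbp was lowest, at 0.94 above HFHFr-F, short of 2-fold. Tef, a relative of Dbp, read 1407, 1895, 1389, 2237 and 2499 in that order on its brightest probe. Once scaled, that probe was highest in HFHFr-N and HFHFr-NA, with 0.68 for HFHFr-N against Control. A dimmer Tef probe (A_51_P450561), well above background on every array, read 41.6, 65.8, 56.6, 46.1 and 61.3. On it HFHFr-F was above HFHFr-N, at scaled levels of -1.76 and -1.90, so the order depends on the probe.

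At least 2-fold higher among the 14 was Ciart, in HFHFr-N against Control (1 of 11, beside 1.15% of all gene names; median 0.32 beside 0.03) and in HFHFr-N against HFHFr-F (1 of 11, beside 2.15%; median -0.02 beside 0.10). At least 2-fold lower was Ciart in HFHFr-FA against HFHFr-F (1 of 12, beside 2.83%; median 0.09 beside 0.03). In HFHFr-F against Control 0 of 11 passed 2-fold in either direction, with a median of 0.14 beside -0.08, and in HFHFr-NA against HFHFr-N 0 of 11, with a median of 0.23 beside 0.02. Bhlhe41 and Arntl2 were dim on every array, and Rorb was well above background in HFHFr-FA alone.

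**Figure D4:**
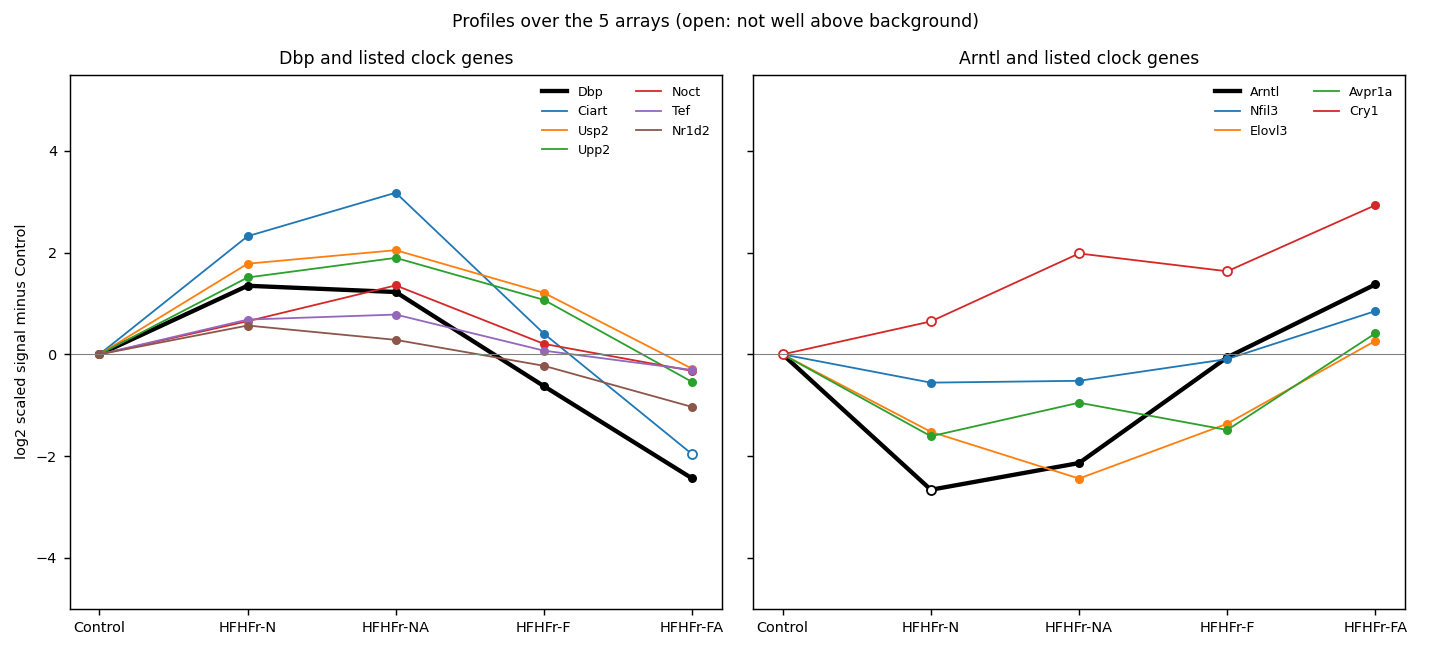
Log2 scaled signal minus Control (vertical axis) on the 5 arrays (horizontal axis) for Dbp with 6 listed genes (left) and Arntl with 4 listed genes (right); open points were not well above background and lines only join the points of a gene. Dbp, Ciart, Usp2 and Upp2 are highest in HFHFr-N and HFHFr-NA, and Arntl and Nfil3 are highest in HFHFr-FA, while the line of Cry1 starts from a dim Control and shows no measured ratio.

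A list of 16 liver genes known to follow the clock gave 15 measured genes in every comparison. In HFHFr-F against Control 5 were higher and 2 lower, beside 5.4% and 3.21% of all gene names (median 0.22 beside -0.08), led by Cdkn1a, a cell cycle inhibitor, at 2.68, with Avpr1a, a vasopressin receptor, at -1.49 and Elovl3, a fatty acid elongase, at -1.36. In HFHFr-N against Control 2 were higher and 3 lower, beside 1.15% and 0.834% (median 0.21 beside 0.03). Usp2, a deubiquitinase known as a clock target, was at 1.78 and Upp2, a uridine phosphorylase, at 1.51, while Avpr1a was at -1.61 and Elovl3 at -1.52. In HFHFr-N against HFHFr-F 0 were higher, beside 2.15%, and 2 lower, beside 3.63%, namely Cdkn1a at -4.06 and the ring finger gene Lonrf3 at -1.20 (median 0.08 beside 0.10).

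In HFHFr-FA against HFHFr-F 2 genes of that list were higher, beside 2.71% of all gene names, Avpr1a at 1.90 and Elovl3 at 1.63, and 3 lower, beside 2.83%, among them Cyp7a1, which catalyses the first step of bile acid production, at -1.98 and Upp2 at -1.61 (median -0.11 beside 0.03). In HFHFr-NA against HFHFr-N 0 of 15 passed 2-fold (median 0.28 beside 0.02), and the largest was Gys2, liver glycogen synthase, at 0.99. Usp2 read 148 in Control, 439 in HFHFr-F, 149 in HFHFr-FA, 505 in HFHFr-N and 633 in HFHFr-NA. After scaling it was lowest in HFHFr-FA, as Dbp was, but there it was only -0.28 from Control. In HFHFr-F it was above Control by 1.21 where Dbp was below. A second Usp2 probe (A_52_P255489) read 16.2 in Control, where it was not well above background, and 30.9 in HFHFr-FA. On that probe Control was the lowest array, so the likeness to Dbp at HFHFr-FA depends on the probe.

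Likeness to Dbp was measured as the root mean square difference between log2 profiles centred on their own mean, over the 5 arrays and 10812 named genes well above background on all of them. The nearest were Cyp3a41a (0.59), Lrtm1 (0.59), Cyp3a44 (0.63), Cyp3a16 (0.64) and Map2k6 (0.68). The Cyp3a genes are close relatives whose probes may share signal. Cyp3a41a was lowest in HFHFr-FA, as Dbp was, at a scaled log2 level of 6.93. Its levels of 9.58 in Control, 9.66 in HFHFr-N and 9.27 in HFHFr-NA lacked the rise of Dbp, at 5.54, 6.88 and 6.76. Lrtm1 read 143 in Control, 283 in HFHFr-F, 43.3 in HFHFr-FA, 268 in HFHFr-N and 299 in HFHFr-NA, so its low array was that of Dbp. In HFHFr-F Lrtm1 was above Control, at scaled levels of 0.34 and -0.28, where Dbp was below. Among the listed clock genes, Upp2 ranked 9, Usp2 17, Coq10b 57, Noct 58 and Tef 86, but others lay at the far end, with Cdkn1a at 10812, Elovl3 at 10789, Avpr1a at 10731, Lonrf3 at 10684 and Nfil3 at 10610. Of the 25 listed genes ranked, 10 lay before the middle of the 10812 ranks and 15 after it.

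For Arntl the same measure ran over the 4 arrays where it was well above background, leaving out HFHFr-N. Among the 5 nearest were Chka (0.37), a choline kinase, Slc17a8 (0.45), Asap2 (0.49) and Pdk4 (0.52), the kinase that restrains pyruvate dehydrogenase in fasting. Pdk4 read 430 in Control, 1125 in HFHFr-F, 3191 in HFHFr-FA and 245 in HFHFr-NA. Elovl3 ranked 6 and Nfil3 45, while Upp2 at 10798 and Usp2 at 10797 lay at the far end. Of the 25 listed genes, 12 lay before the middle of the ranks and 13 after it. With so few arrays many genes lie close, and the ranks are a description of these pools.

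The arrays were alike in quality. Of 43379 non-control spots, 46.7% to 49.4% passed as well above background, 0 were saturated, and probes spotted 10 times and well above background had a median standard deviation of 0.08 to 0.09 on the log2 scale within an array. Spots around the clock probes deviated by medians of -0.19 to 0.19 from their own mean over the arrays. Around the Dbp probe the median was 0.14 in Control and -0.19 in HFHFr-F. Around the Nr1d2 probe it was 0.19 in Control and -0.15 in HFHFr-FA. Both run in the direction of the differences of these genes between the same arrays. The software error leaves such local shifts out, the ratios were not adjusted for them, and their part was not tested. All 8 hepatocyte markers were well above background on every array. Their summed scaled signal was 3733 in Control, 3004 in HFHFr-F, 3239 in HFHFr-FA, 3667 in HFHFr-N and 4100 in HFHFr-NA. The brightest of them, Alb and Fgb, made up most of each sum. In HFHFr-F against Control Ttr was at 0.37 and the other markers were lower, down to -1.37 for Cps1. The arrays where Nr1d1 was low had the lowest sums. The 6 Kupffer cell markers, all detected, summed to 63.4, 76.7 and 61.5 in Control, HFHFr-N and HFHFr-NA and to 123 and 112 in HFHFr-F and HFHFr-FA, the same arrays. In HFHFr-F against Control 2 of these 6 were at least 2-fold higher, Cd5l at 1.12 and Marco at 1.13, while Adgre1 was at 0.95, Clec4f at 0.13, Vsig4 at 0.05 and Timd4 at -0.87, so the markers did not move together. The 5 cholangiocyte markers summed to 1.12, 1.63, 1.24, 0.693 and 0.900 in Control, HFHFr-F, HFHFr-FA, HFHFr-N and HFHFr-NA. Of these, Krt19 was higher in HFHFr-F against Control by at least 1.30 and Krt7 by 1.20. Epcam was higher by at least 0.77, a bound short of 2-fold, Sox9 was at -0.11, and Cftr was dim on every array. The 5 monocyte and macrophage markers summed to 44.6 in Control, 99.7 in HFHFr-F, 83.8 in HFHFr-FA, 60.9 in HFHFr-N and 40.4 in HFHFr-NA, with Itgam dim on all and Ccr2 dim on the 3 arrays where Nr1d1 was high. The part of these cells in the Nr1d1 values was not tested. In pooled tissue, fewer cells of a type and less RNA per cell cannot be told apart.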

How the data were processed

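Each array was hybridised in 1 colour (Cy3) on the Agilent Whole Mouse Genome 4x44K design, with RNA pooled from 5 mice, per the labels. Per the file headers, the authors quantified it with Feature Extraction 10.5.1.1. The deposited processed intensity of a spot is background-subtracted and not scaled between arrays, per the file headers. The deposited spot mean and local background intensities come straight from the scan. The deposited value table is a ratio, the processed intensity divided by a constant of its array (167, 215, 204, 165 and 173 in Control, HFHFr-F, HFHFr-FA, HFHFr-N and HFHFr-NA), found by setting its columns against the scanner values. It is linear, not centred across arrays, and runs in the direction of the signal, with column medians of 0.0700, 0.0675, 0.0721, 0.0738 and 0.0744. The sources used here do not say how that constant was chosen.

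From these files, log2 processed signals were scaled by subtracting the 75th percentile of each array's non-control spots and averaged per probe, leaving out 60 to 96 outlier spots per array. Probes were named through their RefSeq accession (GRCm38.p6, used for names and promoter sequences, 24842 of 41169 probes) or kept the file's name (16327). Probe coordinates are mm9, from the scanner files, and whether a probe lies in an exon, intron or untranslated region was not determined here. The probe with the highest mean over the arrays stood for a gene. A gene entered a comparison when well above background on at least 1 of both arrays, and a gene dim on the other array entered as a bound. A difference counted at 2-fold. The number of arrays, 1 per group, limits the precision, and no test, p-value or spread between replicates could be had.

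Named were the 10 genes, any of 14 further clock genes, up to 4 genes of largest ratio per comparison from the lists of liver clock outputs, glucocorticoid response and temperature response, and the 5 genes nearest in profile to Dbp and to Arntl. The ranks in likeness of listed genes were picked for naming after their values were seen. A further clock gene of the list and a gene near Arntl in profile are not reported here. The members and lists were chosen with earlier results of these data known. Alternatives were normexp background correction with an offset of 50, quantile, cyclic loess and median scaling, the mean over probes, no detection filter and the deposited value table. The counting steps were checked on simulated data. Tools were R 4.3.3 with limma 3.58.1, and Python 3.11.15 with pandas 2.3.3, numpy 2.4.6 and matplotlib 3.10.9.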

Additional observations from a re-analysis of the deposited data

Results flagged for a closer look

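On 4 probes of Per2 and Clock, adding retinoic acid went with opposite signs on the HFHFr diet and on the normal diet, and none of these differences was tested, since each rests on 4 arrays. For Clock, retinoic acid went with 0.62 on the HFHFr diet and -0.18 on the normal diet on probe A_52_P334670, a difference of 0.80, and with 0.60 and -0.69 on probe A_52_P334677, a difference of 1.29. The -0.18 is within its software error of 0.20, and Clock probe A_52_P279391 was higher on both diets, by 0.44 ± 0.31 and 0.51 ± 0.34, so the opposite signs of Clock depend on the probe. For Per2, the probes pointed in opposite directions. Probe A_51_P282760 gave -0.36 and 0.29, a difference of -0.65, and probe A_52_P536869 gave 0.54 and -0.39, a difference of 0.93. The -0.36 ± 0.21, 0.29 ± 0.21 and -0.39 ± 0.25 were within 2 software errors, which limits the opposite signs of Per2.

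The same 4 arrays also give the effect of returning to normal diet without and with retinoic acid, with the same differences by construction. For Clock probe A_52_P334677 it was 0.19 without and -1.11 with, a difference of 1.29. For Per2 probe A_52_P536869 it was 0.67 and -0.26, a difference of 0.93. The 0.19 and the -0.26 were within 2 software errors. The software error of each of these ratios was 0.20 to 0.26, HFHFr-FA was on its own slide, and the part of the slide was not tested.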

How the results depend on the processing

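Of the 70 counts of clock genes past 2-fold under an alternative, 58 were within 1.5 times the count reported and 12 were not. Under normexp with an offset of 50, which by construction compresses dim signals, HFHFr-N against Control had 1 higher and 0 lower, HFHFr-N against HFHFr-F had 0 lower, and HFHFr-FA against HFHFr-F had 0 higher. With no detection filter, HFHFr-F against Control had 3 higher, HFHFr-N against HFHFr-F 2 lower, HFHFr-FA against HFHFr-F 3 lower and HFHFr-NA against HFHFr-N 1 higher. With the mean over probes, HFHFr-N against Control had 1 higher and HFHFr-FA against HFHFr-F 1 higher, and cyclic loess and median scaling each gave 1 higher in HFHFr-F against Control. Of 12 probe ratios at 2-fold or more, all 72 alternative values kept their sign and 62 remained at 2-fold. Under normexp 5 of 12 did, and Nr1d1 in HFHFr-F against Control was -1.78. The authors' value table kept all 12, but it is the same processed signal over another constant per array, so it could hardly differ here or in the counts. Dropping the detection filter also kept all 12, which was fixed in advance, since it leaves measured ratios as they are and cannot shrink a bound. No paired analysis was possible because each group is 1 array, so neither a replicate block, nor a slide block, nor leaving out a replicate could be run. Dim spots limit Arntl, Nr1d1 and Cry1, and Npas2 and Per3 could not be measured.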

Other observations

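Genes that respond to glucocorticoids, hormones that also follow the hour, were measured for 7 of 8 listed. In HFHFr-F against Control 1 was higher and 1 lower, beside 5.4% and 3.21% of all gene names, with a median of 0.26 beside -0.08. These were Lcn2, a siderophore-binding protein also known from inflammation, at 5.03 or more, and Tat, the tyrosine aminotransferase of liver, at -1.26. Lcn2 was dim in Control and read 626 in HFHFr-F, 763 in HFHFr-FA, 72.1 in HFHFr-N and 199 in HFHFr-NA. It was higher by at least 2.28 in HFHFr-N against Control (1 higher, 0 lower, beside 1.15% and 0.834%, median 0.12 beside 0.03), lower at -2.75 in HFHFr-N against HFHFr-F (0 higher, 1 lower, beside 2.15% and 3.63%, median -0.13 beside 0.10) and higher by 1.40 in HFHFr-NA against HFHFr-N (1 higher, 0 lower, beside 1.51% and 1.32%, median 0.31 beside 0.02). In HFHFr-FA against HFHFr-F 0 of 7 passed 2-fold, with a median of 0.35 beside 0.03.

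Genes that respond to body temperature were measured for 7 of 8 listed, and the shares and medians over all gene names are those given beside the clock genes. The heat shock gene Hspa1a was higher in HFHFr-F against Control by 1.43 (1 higher, 0 lower, median -0.36), and Hspa1b was lower in HFHFr-N against Control at -1.06 (0 higher, 1 lower, median -0.43). Both were lower in HFHFr-N against HFHFr-F, at -2.01 and -1.32 (0 higher, 2 lower, median 0.13), and their near-identical sequences may share signal. Hsph1, a heat shock protein, was higher in HFHFr-FA against HFHFr-F by 1.18 (1 higher, 0 lower, median 0.37), where the cold-inducible gene Cirbp was at -0.95. In HFHFr-NA against HFHFr-N 0 of 7 passed 2-fold, with a median of 0.14.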
